A study of Oryza sativa with 8 samples.

Results

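The regions described are 3 spans of 500 kb of the rice genome with a high number of differentially methylated regions (DMRs). The first chromosome 8 span ran from position 1000000 to 1499999, the second chromosome 8 span from 14500000 to 14999999, and the chromosome 11 span from 28000000 to 28499999 of the IRGSP-1.0 build. Plants from LN parent seed were compared with plants from HN parent seed of the same line in the same field, and each of the 4 comparisons is named here by its field (HN or NN) and line (WYG7 or Ox1). The spans were selected on the measured DMR counts of HN-field WYG7, so every value of that comparison inside them is given as a description and supports nothing. The other 3 comparisons were not used for the choice. DMRs belonged to a span when their midpoint lay in it, which gave 1028 of the 100479 DMRs of the 4 comparisons. Of these, 662 came from HN-field WYG7 and 155 from HN-field Ox1, and 86 came from NN-field WYG7 and 125 from NN-field Ox1. The genes of the spans were the 163 of 19182 genes that the deposited gene tables listed with a DMR and whose intervals overlapped a span.

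Cytosines of plant DNA carry methyl groups in CG, CHG and CHH contexts (H is A, C or T), and methylation in all contexts is dense over transposons and repeats, whereas many transcribed gene bodies carry CG methylation alone. CG methylation is copied after replication by a maintenance methyltransferase, CHG methylation is kept through a loop with histone methylation, and CHH methylation is placed anew, in part under the guidance of small RNAs. Methylation states can pass through cell divisions and in some cases through seeds, and they also vary between plants of the same variety.

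The study grew the japonica rice WYG7 (Wuyungeng 7, wild type) and the line Ox1 from parent seeds of high (HN) or low (LN) nitrogen content. HN seed was harvested from plants given 300 kg N/ha and LN seed from plants without N fertilizer. Seed nitrogen content and the nitrogen supply of the parent plants therefore cannot be told apart. Ox1 overexpresses OsNAR2.1, the partner protein of nitrate transporters, from the promoter of OsNAR2.1 itself in the WYG7 background, and is 1 transgenic line. Plants stood in a field given 300 kg N/ha (HN field) or in a field without N fertilizer since 2009 (NN field), and both received potassium and phosphate. DNA of mature plants, labelled as shoot and described as leaf in the methods, was examined by whole-genome bisulfite sequencing, which reads unmethylated cytosines as thymine. There was 1 library for each of the 8 combinations of line, parent seed and field, and the number of plants in a library is not given in the sources used here. A DMR is a stretch where the LN library differed from the HN library of the same line in the same field. A hyper-DMR was taken as one with more methylation in the LN library and a hypo-DMR as one with less, although the lists name no reference library. The limits for a DMR were a coverage over 4 at each cytosine, at least 5 cytosines, at least 100 bp, a difference in methylation level of at least 0.3 and a p-value below 1e-10. Methylation in such DNA is a mean over cells, so a change in every cell and a change in the makeup of the cells cannot be told apart. With 1 library per condition no difference between comparisons could be set against a replicate spread, and no test across samples was possible. The 4 comparisons shared no library.

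The genome was divided into 750 windows of 500 kb, of which the spans are 3. The median window held 33 DMRs of HN-field WYG7 and 32 of HN-field Ox1, and 33 of NN-field WYG7 and 25 of NN-field Ox1. In the values behind the choice, HN-field WYG7 had 226 DMRs in the first chromosome 8 span, 197 in the second and 239 in the chromosome 11 span. These counts were 6.85, 5.97 and 7.24 times the median window, and the highest window of that comparison held 275.

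In the first chromosome 8 span HN-field Ox1 had 54 DMRs and NN-field Ox1 45, which was 1.69 and 1.80 times the median window of each. NN-field WYG7 had 27 DMRs there, 0.818 times its median window. In the second chromosome 8 span the counts were 52 for HN-field Ox1, 53 for NN-field WYG7 and 28 for NN-field Ox1. All 3 of these lay between 1.12 and 1.63 times the median. Counts at least as high as those of Ox1 in the first span occurred in 80 windows for the HN field and 77 for the NN field. The 3 comparisons that did not choose the spans therefore had counts on chromosome 8 that many other windows matched.

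On chromosome 11 the same 3 comparisons stood further apart. Ox1 had 49 DMRs in the HN field, 1.53 times its median window, and 52 in the NN field, 2.08 times its median window, a count reached by 41 of the 750 windows. NN-field WYG7 had 6 DMRs in the chromosome 11 span, 0.182 times its median window. A count of 6 or lower was found in 8 windows (1.07%) in that comparison, and 2 of the 8 were this span and the window just before it. In WYG7 the span held 239 DMRs in one field and 6 in the other, and the Ox1 counts of the 2 fields differed by 3. The 239 is the value that chose the span, which favours a wide gap in WYG7. The 2 gaps therefore give no contrast between the lines. With DMRs of at least 200 bp alone, the 6 became 1. On chromosome 8, joining DMRs of the same direction within 200 bp of each other brought the 226 DMRs of HN-field WYG7 in the first span down to 138.

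**Figure D1:**
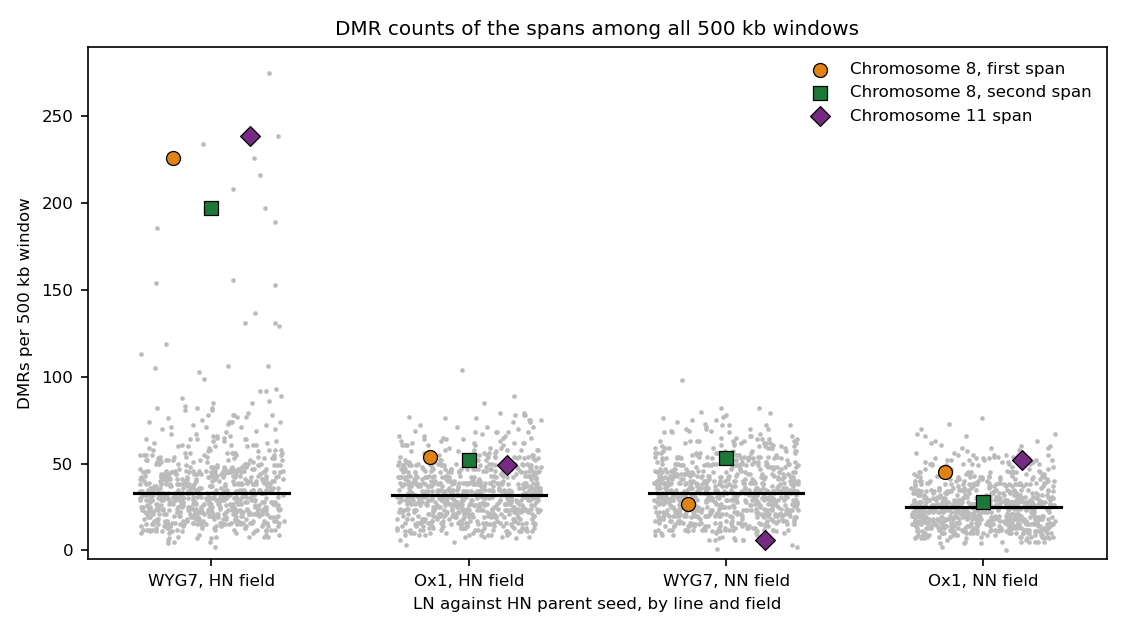
DMRs per 500 kb window (y axis) in each of the 4 comparisons of LN with HN parent seed (x axis). Grey points are all 750 windows with a horizontal jitter, black lines are the medians (33, 32, 33 and 25), and coloured symbols are the 3 spans. The symbols stand at 197 to 239 in HN-field WYG7, which chose them, and between 6 and 54 elsewhere, with the chromosome 11 span at 6 in NN-field WYG7.

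The direction of the DMRs differed between the comparisons. Of all DMRs in the genome, 45.9% were hyper in HN-field WYG7 and 75.4% in HN-field Ox1, and 64.5% in NN-field WYG7 and 33.7% in NN-field Ox1. In the spans, HN-field WYG7 had 212 hyper- and 14 hypo-DMRs in the first chromosome 8 span (93.8%), 181 and 16 in the second (91.9%), and 238 and 1 in the chromosome 11 span (99.6%). That majority is opposite to the genome-wide majority of the same comparison, where hypo-DMRs prevailed. It is part of the contrast that chose the spans and is a description.

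HN-field Ox1 had 35 hyper- and 19 hypo-DMRs in the first chromosome 8 span, 34 and 18 in the second, and 33 and 16 in the chromosome 11 span. The hyper shares were 64.8% (Wilson 95% interval 51.5 to 76.2), 65.4% (51.8 to 76.8) and 67.3% (53.4 to 78.8). All 3 intervals, which cover counting error over DMRs only, held the 75.4% of the whole list. Over the 3 spans together 102 of 155 DMRs were hyper, 65.8% (58.0 to 72.8), against 75.5% outside.

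NN-field WYG7 had 15 hyper- and 12 hypo-DMRs in the first chromosome 8 span (55.6%, 37.3 to 72.4) and 28 and 25 in the second (52.8%, 39.7 to 65.6). In the chromosome 11 span 2 DMRs were hyper and 4 hypo (33.3%, 9.68 to 70.0). Together 45 of 86 were hyper, 52.3% (41.9 to 62.6), against 64.6% outside. The near one-sided increase of HN-field WYG7 was thus not seen in the same line in the NN field, where both directions were about as frequent.

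NN-field Ox1 had 14 hyper- and 31 hypo-DMRs in the first chromosome 8 span (31.1%, 19.5 to 45.7) and 6 and 22 in the second (21.4%, 10.2 to 39.5). On chromosome 11 it had 10 hyper- and 42 hypo-DMRs, 19.2% (10.8 to 31.9), an interval below the 33.7% of the whole list. Neighbouring DMRs are not independent, so the span was also set beside other windows. Among the 490 windows with at least 20 DMRs in that comparison, 19 had a hyper share as low or lower, and the 5th percentile was 20%. For the chromosome 8 spans the shares of the 3 comparisons that did not choose them lay above the 5th percentile of their windows, some only just. It was 64.5% for HN-field Ox1, 50.6% for NN-field WYG7 and 20% for NN-field Ox1. In the first and second span, 35 and 41 of 614 windows of HN-field Ox1 were as low or lower. For NN-field WYG7 88 and 46 of 632 windows were, and for NN-field Ox1 187 and 34 of 490. The chromosome 11 share of HN-field Ox1 had 70 of 614 windows as low or lower. Over the 3 spans, the hyper share inside minus that outside was -9.69 percentage points for HN-field Ox1, -12.2 for NN-field WYG7 and -9.78 for NN-field Ox1.

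**Figure D2:**
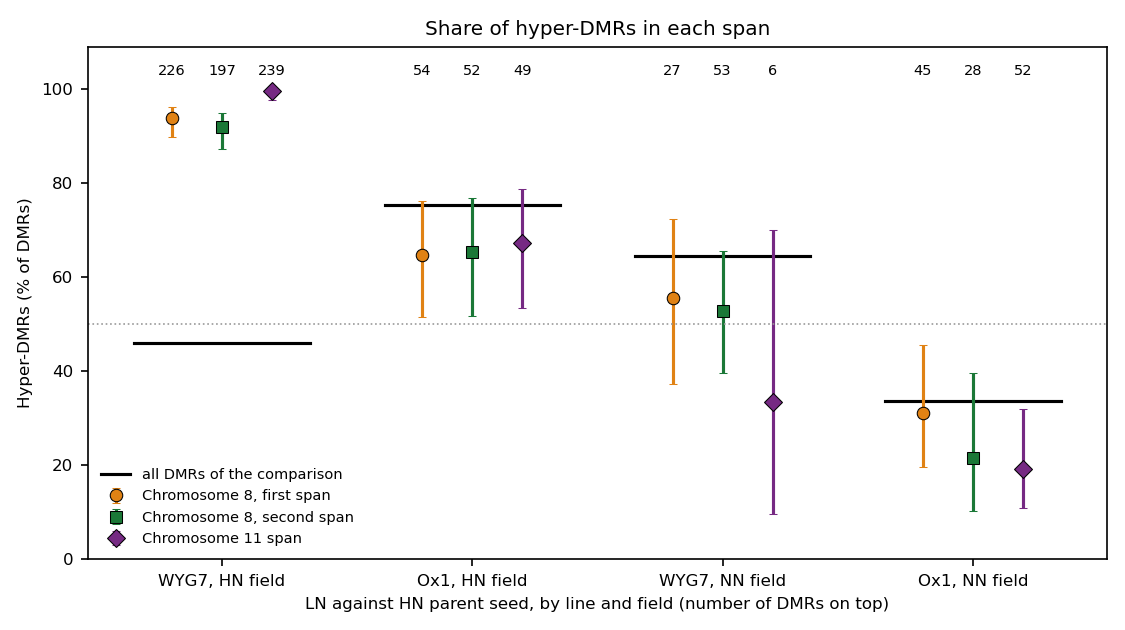
Hyper-DMRs as a percent of the DMRs of a span (y axis) in each comparison of LN with HN parent seed (x axis), with the number of DMRs above. Symbols are the 3 spans, error bars are Wilson 95% intervals (counting error over DMRs only), black lines are all DMRs of the comparison and the dotted line marks 50%. HN-field WYG7, which chose the spans, stands at 91.9% to 99.6% over a line at 45.9%, and the other symbols stand at or below their lines.

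The edges of the spans were fixed by the 500 kb grid, not by the DMRs. The last DMR of HN-field WYG7 before the chromosome 11 span ended at 27996924 and the first inside began at 28013672, and both were hyper. On chromosome 8 the corresponding positions were 1000120 and 1000372 at the first span, where the direction went from hyper to hypo, and 14497765 and 14502020 at the second, both hyper. HN-field WYG7 had 208 DMRs in the window before the chromosome 11 span and 78 in the window after it. Around the first chromosome 8 span the windows held 20 and 89 DMRs, and around the second 64 and 81. The dense stretches were therefore followed beyond the grid in 50 kb bins, joining bins that held more than 2 times the genome's median bin of 3 DMRs and bridging single sparser bins. This definition was chosen after the counts were seen.

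By it, the first chromosome 8 stretch ran from 1100000 to 1949999 (850 kb) and held 304 DMRs of HN-field WYG7, 91.8% of them hyper. Its first and last listed genes in that comparison were LOC_Os08g02650 and LOC_Os08g04020. The second chromosome 8 stretch ran from 14300000 to 15199999 (900 kb), from LOC_Os08g23630 to LOC_Os08g25040, with 280 DMRs, 88.2% hyper. The chromosome 11 stretch was the longest of the 3, from 25850000 to 28649999 (2800 kb), from LOC_Os11g42910 to LOC_Os11g47444, with 1099 DMRs, 95.3% hyper. It ended near the end of the chromosome, where the last position in any list or gene table was 29006914.

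Across the 2800 kb of the chromosome 11 stretch NN-field WYG7 had 71 DMRs, 0.384 times the number that its median window would give over that length. The 5 windows from 26000000 to 28499999 held 17, 16, 12, 6 and 6 of its DMRs, all below its median of 33. Ox1 had 255 DMRs in the HN field (1.42 times) and 224 in the NN field (1.60 times) over the same stretch. The low count of NN-field WYG7 thus reached well beyond the 500 kb that were selected, and ended with 27 DMRs in the next window. In the chromosome 8 stretches the corresponding values for NN-field WYG7 were 0.820 and 1.48 times.

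**Figure D3:**
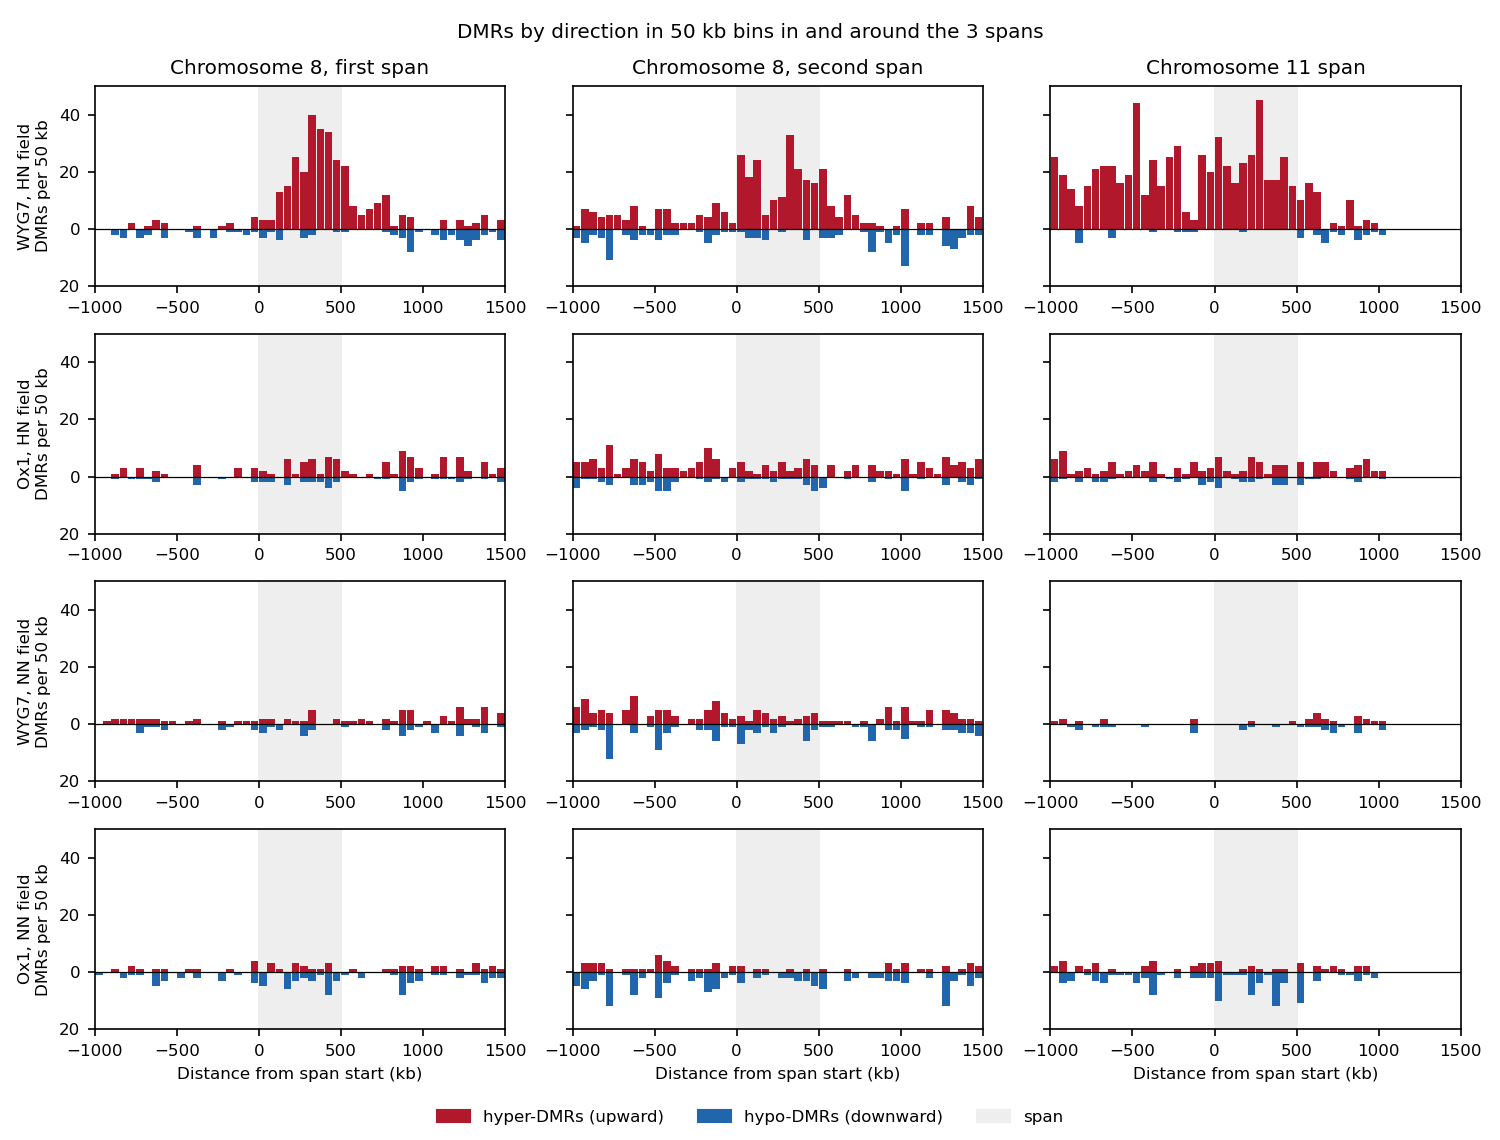
Hyper-DMRs (red, upward) and hypo-DMRs (blue, downward) per 50 kb bin (y axis) against the distance from the start of each span in kb (x axis), for the 3 spans (columns) and the 4 comparisons (rows). Grey marks the span, and the empty right part of the chromosome 11 panels lies beyond the end of the chromosome. In HN-field WYG7 hyper-DMRs reach 45 per bin, and in NN-field WYG7 the bins in and before the chromosome 11 span are nearly empty.

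Within the spans the DMRs of HN-field WYG7 were close together and followed each other in the same direction. On chromosome 11, 163 DMRs in a row were hyper, over 313 kb from 28167172 to 28480650. The longest runs were 108 hyper-DMRs over 145 kb in the first chromosome 8 span and 59 over 106 kb in the second. The longest run that touched a span in any of the other comparisons was 11 hypo-DMRs, in NN-field Ox1 over 115 kb of the chromosome 11 span. Genome-wide the longest run was 346 DMRs in HN-field WYG7, 40 in HN-field Ox1, 22 in NN-field WYG7 and 25 in NN-field Ox1. The run values of HN-field WYG7 come from the lists that chose the spans.

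The single hypo-DMR of HN-field WYG7 in the chromosome 11 span lay at 28165306 to 28165639, was 334 bp long and overlapped no listed gene. In the first chromosome 8 span its 14 hypo-DMRs included 3 over LOC_Os08g02670 and 2 over LOC_Os08g02480. DMRs of this comparison were present in 48 of the 50 bins of 10 kb of the chromosome 11 span. HN-field Ox1 reached 21 of these bins, NN-field Ox1 18, and NN-field WYG7 reached 6.

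DMRs of HN-field WYG7 were also longer in the spans than elsewhere, with a median of 332 bp inside and 228 bp outside, and 14.2% inside were 1 kb or longer against 2.36% outside. They covered 23.8% of the 1500 kb of the spans and 2.34% of the rest of the genome. The longest were 3428 bp in the first chromosome 8 span, over LOC_Os08g02760, LOC_Os08g02770 and LOC_Os08g02780, 4184 bp in the second, over LOC_Os08g24570, and 3400 bp in the chromosome 11 span, over LOC_Os11g47190 and LOC_Os11g47200. All 3 were hyper. The medians of the other comparisons were closer to those outside, 231 against 227 bp for HN-field Ox1, 239.5 against 237 bp for NN-field WYG7 and 258 against 225 bp for NN-field Ox1. They covered 3.01%, 1.80% and 2.83% of the spans and 1.93%, 2.08% and 1.45% outside.

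Few of the many DMRs of HN-field WYG7 lay where another comparison had one. Of its 662 DMRs in the spans, 151 (22.8%) overlapped a DMR of any other comparison by at least 1 bp, against 58.9% outside. The shares of the other lists that met any list were 81.3% for HN-field Ox1, 69.8% for NN-field WYG7 and 83.2% for NN-field Ox1, against 62.4%, 61.3% and 69.8% outside. The list met most often was HN-field WYG7, whose DMRs take up 23.8% of the spans and 2.34% of the rest. Of HN-field Ox1, 108 of the 155 DMRs overlapped it (69.7%, outside 34.8%). For NN-field WYG7 42 of 86 did (48.8%, outside 35.4%), and for NN-field Ox1 90 of 125 did (72.0%, outside 40.9%). As shares of the list of HN-field WYG7, the DMRs that overlapped these 3 lists were 14.4%, 6.95% and 10.9%. All of these values rest on the list that chose the spans.

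The mix of directions at these shared places was close to that of each Ox1 list in the spans. Of the 102 hyper-DMRs of HN-field Ox1, 68 overlapped a hyper-DMR of HN-field WYG7, as did 34 of its 53 hypo-DMRs. Of the 95 hypo-DMRs of NN-field Ox1, 67 overlapped a hyper-DMR of HN-field WYG7, as did 20 of its 30 hyper-DMRs. With nearly all DMRs of HN-field WYG7 hyper in the spans, an overlap with it was nearly always an overlap with a hyper-DMR whatever the direction of the other list.

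The 2 Ox1 lists did not choose the spans and can be set beside each other. DMRs covered 3.31% of the chromosome 11 span in HN-field Ox1 and 3.46% in NN-field Ox1, against 1.93% and 1.45% outside the spans. Lists that cover more of a region overlap more often. In that span 24 of 49 HN-field DMRs and 25 of 52 NN-field DMRs overlapped (49.0% and 48.1%), against 28.5% and 37.1% outside the spans. They formed 27 overlapping pairs, of which 13 were hypo in both fields, 2 were hyper in both, and 12 were hyper in the HN field and hypo in the NN field. No pair had the reverse change. Genome-wide 75.4% of the DMRs of HN-field Ox1 and 33.7% of those of NN-field Ox1 were hyper, which by itself favours pairs from hyper to hypo. Pairs of the same direction made up 55.6% in this span, 48.1% over the 3 spans and 44.8% outside them. Of the 16 hypo-DMRs in the HN field, 10 overlapped a hypo-DMR of the NN field, and of the 33 hyper-DMRs, 12 overlapped a hypo-DMR and 2 a hyper-DMR. NN-field WYG7 shared none of its 6 DMRs with either Ox1 list. Over the 3 spans, 48 of 155 DMRs of HN-field Ox1 (31.0%, outside 28.5%) and 49 of 125 of NN-field Ox1 (39.2%, outside 37.1%) overlapped. They formed 52 pairs, with 5 hyper in both, 20 hypo in both, 24 that went from hyper to hypo and 3 from hypo to hyper.

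Many Ox1 DMRs of the chromosome 11 span lay in a few bins of 10 kb. The 4 bins of 10 kb with the most Ox1 DMRs, picked after the counts were seen, held 23 of the 49 DMRs in the HN field (46.9%) and 32 of the 52 in the NN field (61.5%). In these 40 kb the NN field gave 4 hyper- and 28 hypo-DMRs and the HN field 14 hyper- and 9 hypo-DMRs. The bin from 28040000 to 28049999 held 7 HN-field and 9 NN-field DMRs and no listed gene. The bin from 28200000 held 6 and 9, over LOC_Os11g46920, LOC_Os11g46930 and, for 1 of the 6, LOC_Os11g46940. The bins from 28380000 and 28410000 held 3 and 10 and 7 and 4. All of the former lay over LOC_Os11g47190 and all of the latter over LOC_Os11g47250, where 1 also reached LOC_Os11g47240. HN-field WYG7 had 21 DMRs in the 4 bins, all hyper, which was 8.79% of its DMRs in the span. In the chromosome 8 spans the 4 richest bins, chosen the same way, held between 29.6% and 33.3% of the Ox1 DMRs. Bins picked on the Ox1 counts hold a high share of them by construction, and other windows were not counted this way.

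**Figure D4:**
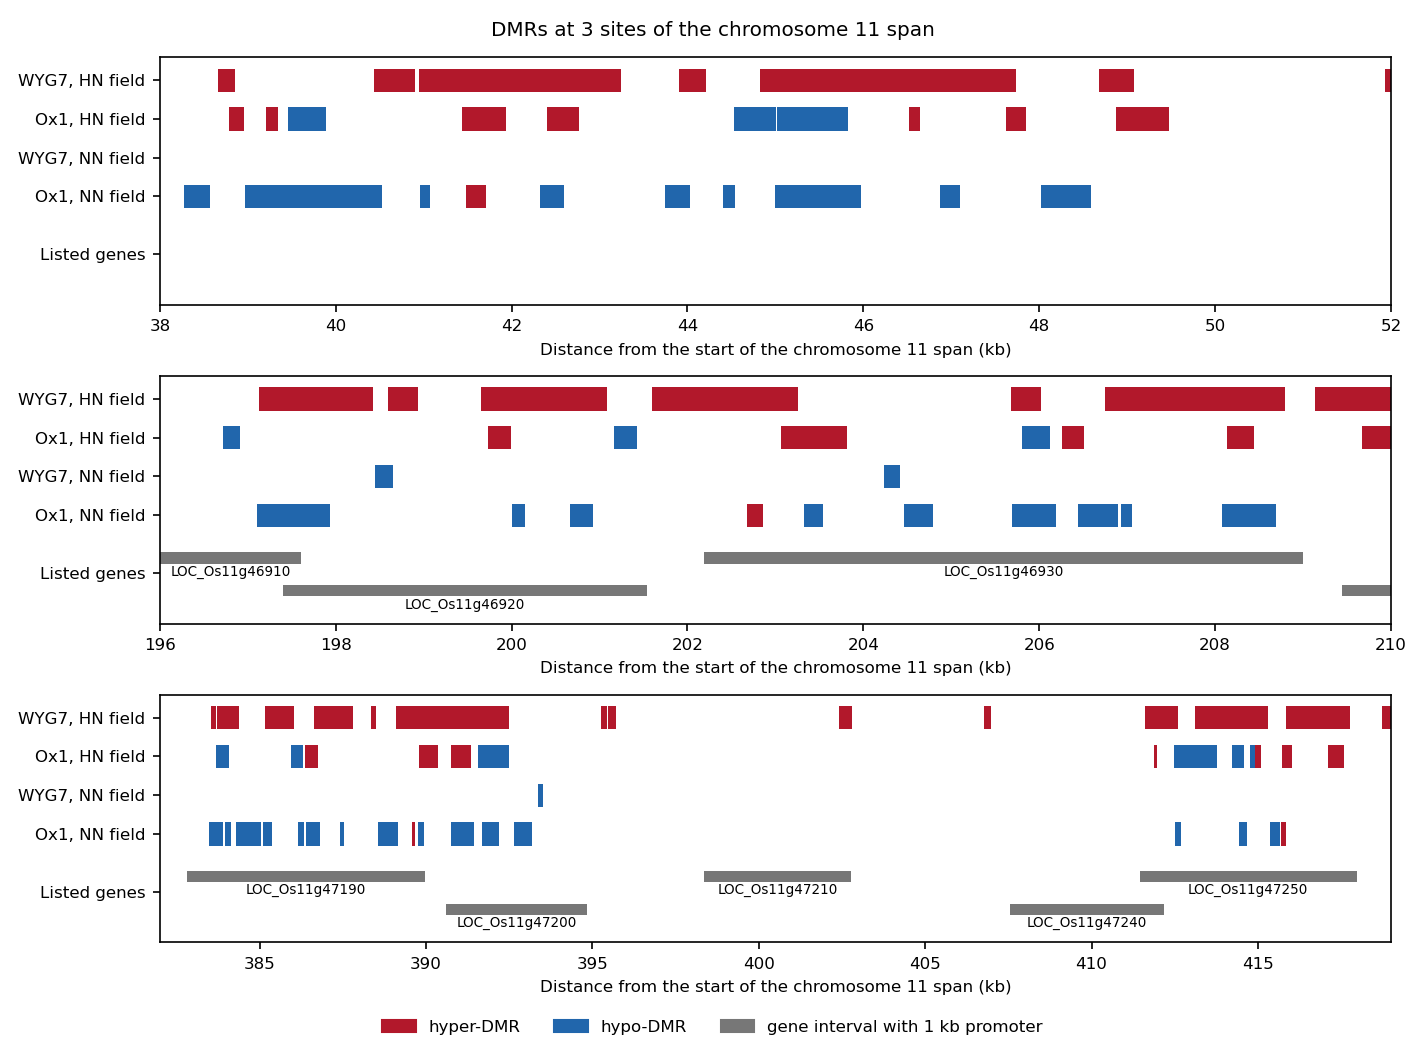
DMRs of the 4 comparisons (upper 4 tracks, red hyper and blue hypo) and listed gene intervals with the 1 kb promoter (grey) against the distance from the start of the chromosome 11 span in kb, drawn to scale, around 3 sites rich in Ox1 DMRs. Long hyper-DMRs of HN-field WYG7 lie over a mix of hyper- and hypo-DMRs of HN-field Ox1 and mostly hypo-DMRs of NN-field Ox1, and NN-field WYG7 has 3 DMRs, all hypo.

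The gene tables hold locus identifiers alone, so the genes are given by locus and no name or role is attached to them. A gene was listed where its body or its 1 kb promoter overlapped a DMR, but not at every overlap. Some genes of the spans that a DMR overlapped by 5 to 49 bp were not listed for that comparison. Of the 19182 genes listed in any comparison, 56% were listed for HN-field WYG7 and 54.9% for HN-field Ox1, and 57% for NN-field WYG7 and 40.9% for NN-field Ox1. Of the 163 genes of the spans, 152 (93.3%) were listed for HN-field WYG7, 73 (44.8%) for HN-field Ox1, 46 (28.2%) for NN-field WYG7 and 42 (25.8%) for NN-field Ox1. The first of these shares follows from the choice, and because a gene enters the 163 through any list, it also lowers the other 3 shares. Free of that, genes were counted per 500 kb window by their midpoint, where the median window listed 13 for HN-field Ox1, 14 for NN-field WYG7 and 10 for NN-field Ox1. HN-field Ox1 had 29, 23 and 19 listed genes in the first chromosome 8, second chromosome 8 and chromosome 11 spans, and 21, 86 and 174 windows held as many or more. NN-field WYG7 had 11, 28 and 5. As many as 28 or more were held by 38 windows, and 286 and 49 windows held as few as 11 and 5 or fewer. NN-field Ox1 had 18, 12 and 11, and 80, 278 and 326 windows held as many or more. Most of the 9 values were thus matched by many windows.

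By span, HN-field WYG7 listed 53 of 57 genes in the first chromosome 8 span, 53 of 60 in the second and all 46 in the chromosome 11 span. HN-field Ox1 listed 31, 23 and 19, NN-field WYG7 13, 28 and 5, and NN-field Ox1 19, 12 and 11. In all 4 tables were 17 genes (10.4%), against 15.3% of all 19182 genes. In a single table were 76 of the 163 (46.6%), against 40.1% of all genes. For 69 of the 76 that table was HN-field WYG7, and the share of such genes over all listed genes is not given here. The choice of the spans by HN-field WYG7 favours genes listed for it alone. These shares are therefore a description and show no trait of the genes. Of the 152 genes that HN-field WYG7 listed, 135 had hyper-DMRs alone, 10 hypo-DMRs alone and 7 both, with a median of 2 DMRs per gene.

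**Figure D5:**
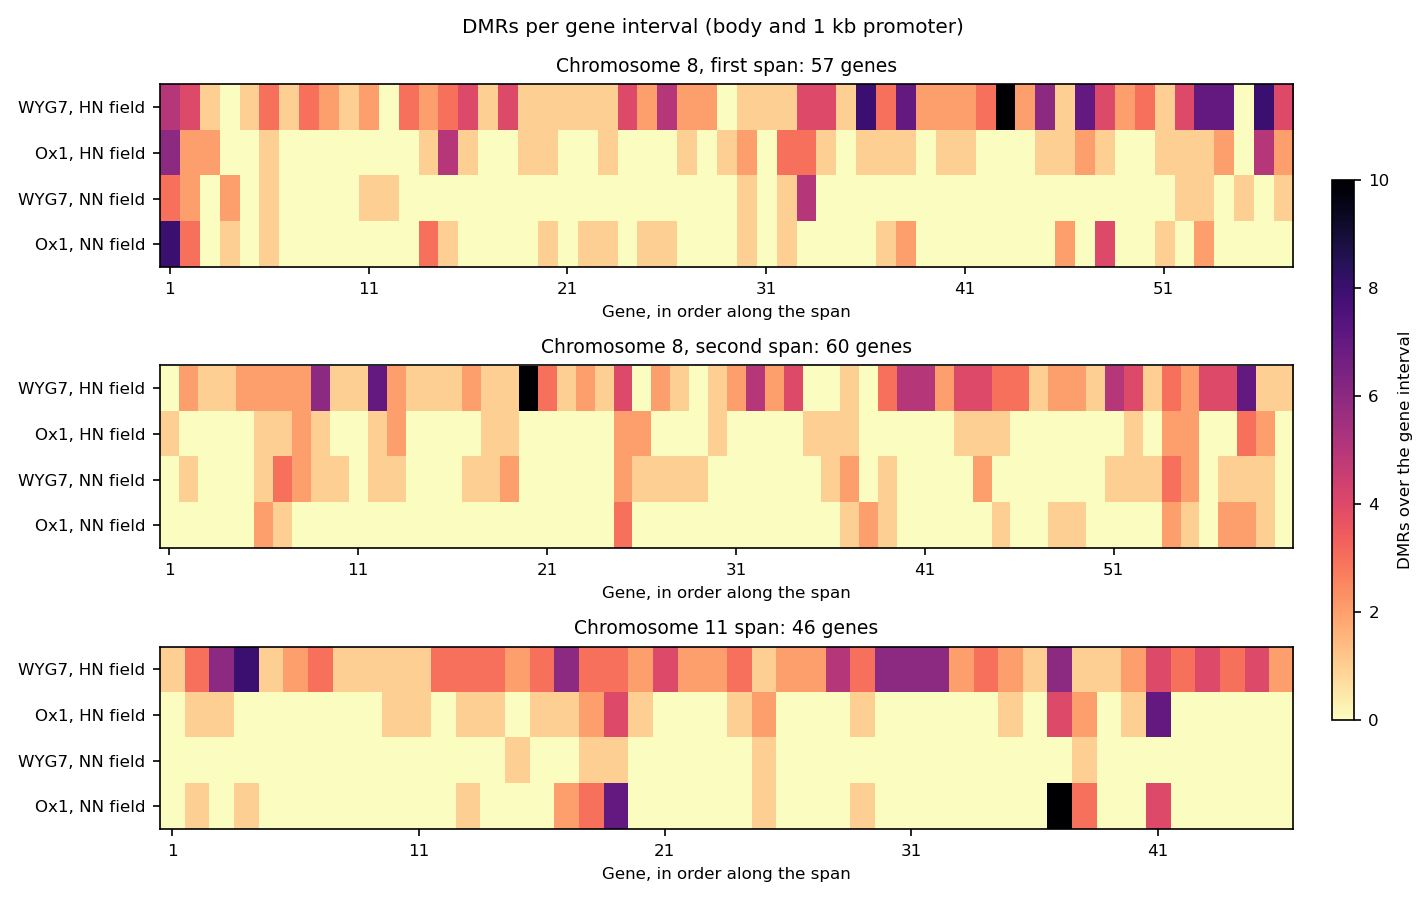
Number of DMRs over each listed gene interval with its 1 kb promoter (colour scale from 0 to 10), for the genes of each span in chromosomal order (x axis, gene number) and the 4 comparisons (y axis). The top strip of each panel, HN-field WYG7, is filled almost throughout, and NN-field WYG7 has 5 filled cells in the chromosome 11 span.

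In the first chromosome 8 span the genes with the most DMRs of HN-field WYG7 were LOC_Os08g03080 with 10, LOC_Os08g03220 and LOC_Os08g03010 with 8 each, and LOC_Os08g03030, LOC_Os08g03180, LOC_Os08g03200 and LOC_Os08g03120 with 7 each, all of them hyper. The 10 of LOC_Os08g03080 (1376078 to 1386197) covered 71.1% of its interval, and no other comparison had a DMR there. LOC_Os08g03220 also had 5 hyper-DMRs of HN-field Ox1 over 12.3% of its interval. LOC_Os08g03180 (1467423 to 1473230) was covered to 90.7% and was in all 4 tables, with 1 hypo-DMR of HN-field Ox1, 1 hyper-DMR of NN-field WYG7 and 2 hypo-DMRs of NN-field Ox1.

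At the left edge of that span, LOC_Os08g02470 and LOC_Os08g02480 were in all 4 tables and carried both directions in HN-field WYG7, before the dense stretch began. LOC_Os08g02470 (993379 to 1000215) had 4 hyper- and 1 hypo-DMR in HN-field WYG7 and 4 and 2 in HN-field Ox1, and 1 and 2 in NN-field WYG7 and 3 and 5 in NN-field Ox1. LOC_Os08g02480 (1001756 to 1005246) held the longest hypo-DMRs of Ox1 in the span, 1165 bp in the HN field and 1385 bp in the NN field. Its interval was covered to 39.2% and 46.4% by 2 and 3 hypo-DMRs of Ox1, and to 33.5% by 1 hyper- and 1 hypo-DMR of NN-field WYG7. In this gene the 3 comparisons that did not choose the span covered more of the interval than HN-field WYG7 did (18.2%). LOC_Os08g02650, LOC_Os08g02960 and LOC_Os08g02980 were also in all 4 tables, and LOC_Os08g02990 and LOC_Os08g03230 carried both directions in HN-field WYG7.

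In the second chromosome 8 span LOC_Os08g24220 (14617726 to 14624202) had 10 hyper-DMRs of HN-field WYG7 over 65.8% of its interval and none in any other comparison. LOC_Os08g24730 (14956987 to 14964088) had 7 hyper-DMRs over 79.3%, whereas its 3 DMRs of HN-field Ox1, 1 of NN-field WYG7 and 2 of NN-field Ox1 were all hypo and covered 9.55%, 2.48% and 2.31%. LOC_Os08g24120, LOC_Os08g24080 and LOC_Os08g24650 followed with 7, 6 and 5 DMRs of HN-field WYG7, and LOC_Os08g24410, LOC_Os08g24530 and LOC_Os08g24540 also had 5. LOC_Os08g24050, LOC_Os08g24270, LOC_Os08g24500, LOC_Os08g24680, LOC_Os08g24690 and LOC_Os08g24740 were, with LOC_Os08g24730, in all 4 tables. LOC_Os08g24120, LOC_Os08g24190 and LOC_Os08g24660 carried both directions in HN-field WYG7.

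LOC_Os08g24510 (14802202 to 14803417) was a gene of this span without a DMR of HN-field WYG7. The longest hypo-DMR of NN-field Ox1 in the span, 1141 bp, lay over it, and 2 hypo-DMRs of that comparison covered 99.3% of the interval. Neither NN-field WYG7 nor HN-field Ox1 had a DMR there. The next gene, LOC_Os08g24520, held the longest hyper-DMR of NN-field Ox1 in the span, 543 bp. LOC_Os08g24270 held the longest hypo-DMRs of HN-field Ox1 (696 bp) and of NN-field WYG7 (659 bp). The longest hyper-DMR was 848 bp in HN-field Ox1, over LOC_Os08g24050 and LOC_Os08g24060, and 794 bp in NN-field WYG7, over LOC_Os08g24740.

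In the chromosome 11 span all 46 listed genes carried hyper-DMRs and no hypo-DMR in HN-field WYG7. LOC_Os11g46290 had 8, and LOC_Os11g47190, LOC_Os11g46910, LOC_Os11g47080, LOC_Os11g47070, LOC_Os11g46270 and LOC_Os11g47100 had 6 each. LOC_Os11g47080 (28286636 to 28290528) was covered to 89.8% and LOC_Os11g47070 to 76.9%, and neither had a DMR in another comparison.

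LOC_Os11g47190 (28382800 to 28389955) was rich in DMRs in 3 comparisons. HN-field WYG7 had 6 hyper-DMRs there, Ox1 had 2 hyper- and 2 hypo-DMRs in the HN field and 1 hyper- and 9 hypo-DMRs in the NN field, and NN-field WYG7 had none. The covered shares of the interval were 54.4%, 18% and 45.2%. LOC_Os11g46930 (28202189 to 28209005) had 3 hyper-DMRs of HN-field WYG7 and 3 hyper- and 1 hypo-DMR of HN-field Ox1, and 1 hypo-DMR of NN-field WYG7 and 1 hyper- and 6 hypo-DMRs of NN-field Ox1. In both genes DMRs of HN-field WYG7 were all hyper and those of NN-field Ox1 mostly hypo. LOC_Os11g47250 (28411447 to 28417975) had 4 hyper-DMRs of HN-field WYG7, 4 hyper- and 3 hypo-DMRs of HN-field Ox1 and 1 and 3 of NN-field Ox1, and held the longest hypo-DMR of HN-field Ox1 (1272 bp).

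LOC_Os11g46920, LOC_Os11g46930, LOC_Os11g46990 and LOC_Os11g47200 were in all 4 tables. LOC_Os11g46990 (28242115 to 28243546) differed from the other 3 in that its DMRs were hyper in every comparison, 1 in HN-field WYG7 and 2 in HN-field Ox1, and 1 in NN-field WYG7 and 1 in NN-field Ox1. Of the 6 DMRs of NN-field WYG7 in this span, 4 were hypo and lay over LOC_Os11g46890, LOC_Os11g46920, LOC_Os11g46930 and LOC_Os11g47200. The other 2 were hyper, over LOC_Os11g46990 and outside listed genes at 28471744 to 28471853. The longest of the 6 was 202 bp.

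The share of the DMRs of the spans that overlapped a listed gene interval was 60.6% in HN-field WYG7 and 66.5% in HN-field Ox1, and 65.1% in NN-field WYG7 and 64.0% in NN-field Ox1, against 63.3%, 65.5%, 64.4% and 63.3% outside. The intervals of listed genes made up 42.4%, 42.0% and 42.2% of the 3 spans. Genes were listed through these same DMRs, so a share of DMRs above that of the intervals is built in. It does not show a preference of DMRs for genes. In the chromosome 11 span 113 of the 239 DMRs of HN-field WYG7 lay outside listed genes. Exons, introns, transposons and the sequence of the DMRs were not analysed here.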

How the data were processed

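Leaf DNA of 8 libraries, 1 per condition, was compared by the authors as LN against HN parent seed for each line in each field. Reads were aligned to IRGSP-1.0 with Bismark 0.9.0, per the submitters' processing notes, and DMRs were called with SMART, which the methods describe. The deposited lists of the authors hold positions of DMRs in bp with a direction, and positions of gene intervals with a locus identifier. Since coverage, level, p-value and context of the cytosines are absent from them, the depth of a DMR is unknown. The annotation version is not given in the sources used here, and the gene table provided, of assembly ASM3414082v1, matched none of the loci. All columns belonged to a comparison.

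Coordinates were treated as 1-based and inclusive at both ends (shortest DMR 100 bp). Python 3.11.15 served to compute counts, overlaps (at least 1 bp), lengths and Wilson 95% intervals, with pandas 2.3.3, numpy 2.4.6 and scipy 1.17.1. Plots were made in matplotlib 3.10.9. Overlap functions were tested on simulated lists. Named genes were, per span, the 5 with the most DMRs of HN-field WYG7 (ties by covered bp, then position, with genes tied at the last place named too), those in all 4 tables, those at the longest DMR of each direction in each comparison, those with both directions in HN-field WYG7, and the first and last of the dense stretch. LOC_Os08g02670, LOC_Os11g46890 and the loci at sites rich in Ox1 DMRs were named after their values were seen. Alternatives were DMRs of at least 200 bp, merging within 200 bp, any overlap with the span, spans widened by 100 kb, weighting by length, 50% overlap and gene midpoints. The spans, the members and the lists were chosen with earlier results of these data known.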

Additional observations from a re-analysis of the deposited data

Results flagged for a closer look

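In each span, pairs of comparisons that share a line or a field were set side by side, 12 pairs in all, and 6 had opposite majorities of direction. In the first chromosome 8 span the hyper share of Ox1 was 33.7 percentage points higher in the HN field than in the NN field, and in the NN field it was 24.4 points higher in WYG7 than in Ox1. In the second chromosome 8 span the corresponding differences were 44.0 and 31.4 points. The majorities of NN-field WYG7 in these spans were narrow, 15 hyper- against 12 hypo-DMRs and 28 against 25. Their Wilson intervals held 50%. In the chromosome 11 span the hyper share of Ox1 was 48.1 points higher in the HN field than in the NN field. The remaining difference, HN-field WYG7 minus NN-field WYG7 in the chromosome 11 span, was 66.2 points, where the NN field gave 6 DMRs and the HN field values chose the span. Each condition had 1 library, so none of the 6 differences was tested. Over the whole genome every pair sharing a line or a field had opposite majorities, so such pairs are not particular to the spans. Genome-wide hyper shares were 45.9% for HN-field WYG7, 75.4% for HN-field Ox1, 64.5% for NN-field WYG7 and 33.7% for NN-field Ox1. The flagged differences of Ox1 between fields, and of the lines in the NN field, had the same sign as genome-wide. The flagged difference of WYG7 between fields had the opposite sign, since genome-wide its HN-field share was the lower.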

How the results depend on the processing

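Of 144 values under an alternative setting, for 48 results, 126 stayed within the limits set and 18 moved. Shares were held to the Wilson interval of the main value and counts to a fixed ratio of it. A change of majority could be recorded only among the 48 values for the hyper share, and only where that interval left out 50%. Of these, 0 were recorded as changed. Merging DMRs of the same direction within 200 bp left 138 of HN-field WYG7 in the first chromosome 8 span. With DMRs of at least 200 bp alone, that span held 28 of HN-field Ox1 and 16 of NN-field WYG7, with 20 and 7 genes. The chromosome 11 span then held 32 of HN-field Ox1 with 12 genes, 1 of NN-field WYG7 with 1 gene, and 32 of NN-field Ox1. The 1 DMR left in NN-field WYG7 gave a hyper share of 0% and an overlap with HN-field WYG7 of 100%, and the overlap of HN-field Ox1 in the second chromosome 8 span was 31.4%. Widened spans gave 10 DMRs of NN-field WYG7 on chromosome 11. Weighted by length, HN-field WYG7 had 97.4% and 95.5% hyper in the first and second chromosome 8 spans. An overlap of 50% of the shorter DMR left 39.6% of NN-field WYG7 in the second chromosome 8 span and 63.5% of NN-field Ox1 on chromosome 11. No paired analysis was possible because each condition has 1 library, and no replicate could be left out. Depth, level and cytosine context of a DMR were not analysed here, and the counts on chromosome 11 for NN-field WYG7 are small.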
